A study of Homo sapiens with 6 samples.

Results

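Ephrins and Eph receptors were followed in IOMM-Lee cells, an established human line that the labels describe as grade 3 meningioma; meningiomas grow from the brain's coverings. The genes were listed by name, with no threshold on their values, and with earlier results of these data known. They are the ligand genes EFNA1, EFNA3, EFNA4, EFNA5, EFNB1 and EFNB2 and the receptor genes EPHA2, EPHA4, EPHB2 and EPHB4. All 10 were found by Ensembl identifier among the 61859 genes of the count table, and all 10 passed the filter on low counts. RNA was sequenced from 3 biological replicates labelled normoxic, with no oxygen level given, and 3 kept at 0.2% oxygen in a hypoxia workstation. The time given is 48 h for both groups. Both groups are the same unmodified line, so no second meningioma line was measured.

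Eph receptors are the largest family of receptor tyrosine kinases, and they bind ephrins that sit on the surface of neighbouring cells. Ephrins of the A class are held in the membrane by a lipid anchor and bind mainly EphA receptors. Those of the B class cross the membrane, bind mainly EphB receptors and signal back into their own cell. The contacts repel or attach cells, and the system is known for tissue boundaries, axon guidance, arterial and venous identity and the invasion of tumours.

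Library totals ran from 10619864 to 19554178 counts. Levels are given as CPM, counts scaled to a common library depth with trimmed-mean (TMM) factors, and 3 counts in a library corresponded to 0.133 to 0.316 CPM. The oxygen-responsive genes CA9, VEGFA and NDRG1 were 13.1-fold, 11.0-fold and 87.6-fold higher in hypoxia (edgeR adjusted p = 2.38e-08, 2.81e-05 and 1.45e-09). Hypoxia replicate 3 stood apart on the second principal component of all tested genes, at -47.7 against 20.1 and 27.2 for the other hypoxia libraries. Of 12 meningioma and arachnoid markers, 7 had a mean under 1 CPM (SSTR2, PTGDS, ALPL, PGR, CDH1, CLDN11 and SLC6A20). Of the 12, 6 were tested, 4 rose and 1 fell (83.3% called, beside 62.2% of all tested genes). Most of the summed level was VIM, and the sum ran from 2987 to 4086 CPM in normoxia and from 6584 to 8519 in hypoxia. All 6 leukocyte markers had a mean under 1 CPM. Their sum ran from 0.674 to 1.11 CPM in normoxia and from 0.843 to 1.43 in hypoxia. The 6 keratinocyte markers, of which KRT14 and KRT1 had no count, summed to between 12.99 and 18.2 CPM in normoxia and between 24.7 and 55.6 in hypoxia, nearly all of it KRT10. Neural and glial markers summed to between 19.1 and 24.4 CPM in normoxia and between 15.2 and 17.9 in hypoxia. Their part in the results was not tested.

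In hypoxia, RNA of most ephrins and Eph receptors was higher. EFNA3 rose 11.6-fold, EFNB1 3.07-fold and EFNA4 2.21-fold, while EPHA4 was 6.90-fold lower. Of the 10 genes, 7 rose, 2 fell and 1 was not called (edgeR quasi-likelihood test, adjusted p under 0.05). Over all 16411 tested genes 62.2% were called, 31.2% as higher and 31.0% as lower. Groups did not overlap for 9 of the 10 genes and for 67.9% of all tested genes. The median log2 change was 0.78 over the 10 genes and 0.0094 over all tested genes. With library totals in place of TMM factors the median log2 change of all genes shifted by -0.31, and 33.1% of all calls were higher, against 50.1% with TMM. In such bulk libraries, fewer cells of a type and less RNA per cell cannot be told apart.

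**Figure D1:**
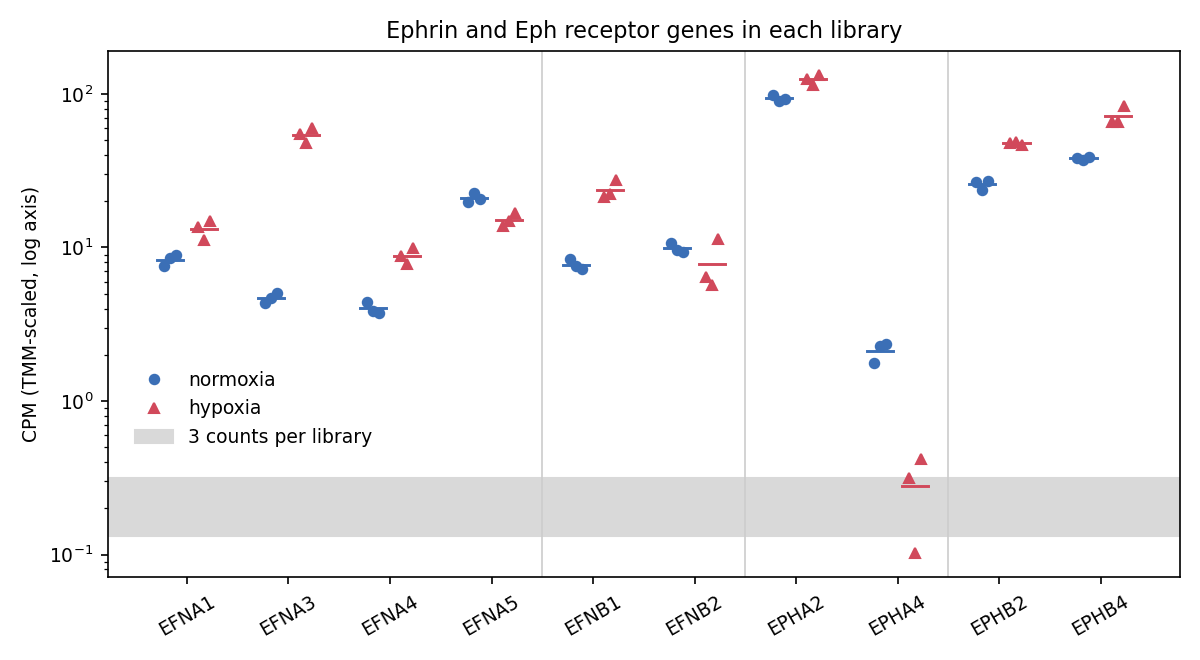
CPM of each ephrin and Eph gene in the 3 normoxia libraries (circles) and the 3 hypoxia libraries (triangles) on a log axis. Short lines are group means and the grey band is the level of 3 counts in a library, from 0.133 to 0.316 CPM. Only EFNB2 has overlapping groups, and EPHA4 in hypoxia lies at or near the band.

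EFNA3 encodes ephrin-A3, a lipid-anchored ligand of EphA receptors and a well known oxygen-responsive gene. It was at 4.35, 4.66 and 5.08 CPM in the normoxia libraries and at 54.7, 48.1 and 60.1 CPM in the hypoxia libraries. Every hypoxia library was far above every normoxia library, and the spread inside each group was small beside the gap. The log2 change was 3.54 ± 0.14 (SE; edgeR adjusted p = 2.34e-08). Across the 16 alternative settings it stayed between 3.22 and 3.60. GENCODE lists 1 coding and 2 non-coding EFNA3 transcripts, and counts per gene do not separate them.

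EFNA3 (ENSG00000143590, GRCh38 chromosome 1, 155078872 to 155087538, plus strand) lies between EFNA4 (ENSG00000243364, 155063731 to 155069553) and EFNA1 (ENSG00000169242, 155127460 to 155134857). All are on the plus strand, with 9318 bases between EFNA4 and EFNA3 and 39921 bases between EFNA3 and EFNA1. EFNA4 encodes ephrin-A4. It was at 4.44, 3.86 and 3.74 CPM in normoxia and 8.86, 7.85 and 9.87 CPM in hypoxia, so every hypoxia library was higher. Its log2 change was 1.14 ± 0.20 (SE; edgeR adjusted p = 0.000473). EFNA1, the ligand best known for activating EphA2, was at 7.54, 8.52 and 8.93 CPM in normoxia and 13.6, 11.2 and 14.9 CPM in hypoxia. These groups were also apart, and the log2 change was 0.68 ± 0.17 (SE; edgeR adjusted p = 0.00505). The EFNA1 call was lost with library totals alone, at a log2 change of 0.37 (edgeR adjusted p = 0.0783).

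The count table also lists the annotated readthrough EFNA4-EFNA3 (ENSG00000251246), which had 1 count over all 6 libraries. It shares 853 of the 1909 exonic bases of EFNA3 and 189 of the 1263 of EFNA4. In GENCODE 29 the readthrough has 0 exonic bases of its own, so its low count says little about its level. If the same exons were used, its 1 count beside 2250 for EFNA3 means that shared reads were not credited to both genes. Whether they were dropped or given to 1 gene is not given in the sources used here. The EFNA3 and EFNA4 levels are uncertain to that extent.

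The promoters of this cluster and of EPHA4 are shown because these genes include the largest rise and the largest fall. Each is a RefSeq window on GRCh38.p14 from 250 bases before to 50 bases after the start site. Capitals mark ACGTG and GCGTG on either strand (CACGT and CACGC on the other), the core that hypoxia-inducible factors are known to bind. ACGTG also lies inside the E-box CACGTG.
EFNA4 promoter, chr1:155063490-155063789, plus strand: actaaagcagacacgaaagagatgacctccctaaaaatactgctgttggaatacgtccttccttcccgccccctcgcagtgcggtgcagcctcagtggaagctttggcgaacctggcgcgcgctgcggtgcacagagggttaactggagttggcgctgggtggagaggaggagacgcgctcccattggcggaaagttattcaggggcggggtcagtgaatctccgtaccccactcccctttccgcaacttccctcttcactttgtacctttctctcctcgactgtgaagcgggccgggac
EFNA3 promoter, chr1:155078587-155078886, plus strand: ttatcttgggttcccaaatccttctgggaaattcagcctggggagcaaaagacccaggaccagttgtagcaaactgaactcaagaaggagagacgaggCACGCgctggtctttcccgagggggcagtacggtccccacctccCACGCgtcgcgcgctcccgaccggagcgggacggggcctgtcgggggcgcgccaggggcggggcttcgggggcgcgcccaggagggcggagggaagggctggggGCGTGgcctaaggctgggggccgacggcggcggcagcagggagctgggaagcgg
EFNA1 promoter, chr1:155127626-155127925, plus strand: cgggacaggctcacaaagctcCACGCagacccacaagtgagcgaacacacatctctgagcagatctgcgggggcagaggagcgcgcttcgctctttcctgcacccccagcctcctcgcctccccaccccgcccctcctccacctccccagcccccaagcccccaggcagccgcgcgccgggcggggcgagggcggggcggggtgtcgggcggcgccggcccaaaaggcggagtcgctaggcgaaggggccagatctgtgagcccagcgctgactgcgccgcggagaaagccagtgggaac
EPHA4 promoter, chr2:221574153-221574452, minus strand: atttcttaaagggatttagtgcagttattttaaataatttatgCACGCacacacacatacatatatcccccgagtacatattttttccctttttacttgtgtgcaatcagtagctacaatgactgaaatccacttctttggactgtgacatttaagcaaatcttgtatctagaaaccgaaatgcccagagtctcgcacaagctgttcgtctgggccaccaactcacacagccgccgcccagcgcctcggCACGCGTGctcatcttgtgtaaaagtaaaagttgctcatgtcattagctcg

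The EFNA3 window holds 3 such cores, with first bases 152, 108 and 4 bases before the start site. The window of EFNA5, which fell, is not shown and also holds 3. EFNA1 holds 1, at 229 bases before its RefSeq start, and EFNA4 holds 0. The EFNA1 window lies inside the GENCODE span of the gene, which begins at 155127460. Bases before that GENCODE start were not searched for EFNA1. The EPHA4 window shown above, the one with more matches, holds 3 as well, of which a pair overlap at the start site. A second EPHA4 window, chr2:221572255-221572554, is not shown and holds 1, at 60 bases before its start. The count for EPHA4 thus depends on the window taken. At least 1 core was present in at least 1 window for 9 of the 10 genes, among those that rose and those that fell. Of all 35116 windows of this length in the table, 48.4% held at least 1 core and 10.1% held at least 3. These shares are per window and the count of 9 is per gene, so they are not like measures. None of the windows of these genes held CACGTG, which 7.26% of all windows hold. A match is a description of letters and not a bound site.

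Of 18 other tested genes whose span lay within 100 kb of EFNA1, EFNA3 or EFNA4, 5 rose, 5 fell and 8 were not called, with a median log2 change of 0.038. Over all tested genes 31.2% rose and 31.0% fell, so these counts say nothing particular about the neighbours. The nearest upstream gene ADAM15, a membrane metalloprotease, had a mean of 107 ± 5.14 CPM in normoxia and of 129 ± 8.39 CPM in hypoxia (SD, n = 3; edgeR adjusted p = 0.0251). With library totals alone the log2 change went from 0.27 to -0.038, and the call was lost without normoxia replicate 1, 2 or 3 or hypoxia replicate 2, with adjusted p up to 0.173. SLC50A1, a sugar transporter gene just downstream of EFNA1, was at 23.4 ± 1.99 and 23.9 ± 2.06 CPM (SD, n = 3; edgeR adjusted p = 0.849). Further out, the transcription factor gene ZBTB7B rose 3.29-fold, the mucin gene MUC1 4.27-fold, TRIM46 2.81-fold and MTX1 1.43-fold. FLAD1, which makes the cofactor FAD, was 4.04-fold lower, and CKS1B and PYGO2 fell, at log2 changes of -0.32 and -0.36. MTX1P1 is a pseudogene copy of MTX1, so the values of this pair are uncertain. Leaving out 1 library ended the calls of MTX1 (normoxia replicate 1 or 2, or hypoxia replicate 1), PYGO2 (normoxia replicate 1 or 3) and CKS1B (normoxia replicate 3), with adjusted p of 0.105, 0.0748 and 0.0703 at most. The genes not called were SHC1, DCST2, SLC50A1, DPM3, KRTCAP2, THBS3-AS1, THBS3 and MTX1P1.

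**Figure D2:**
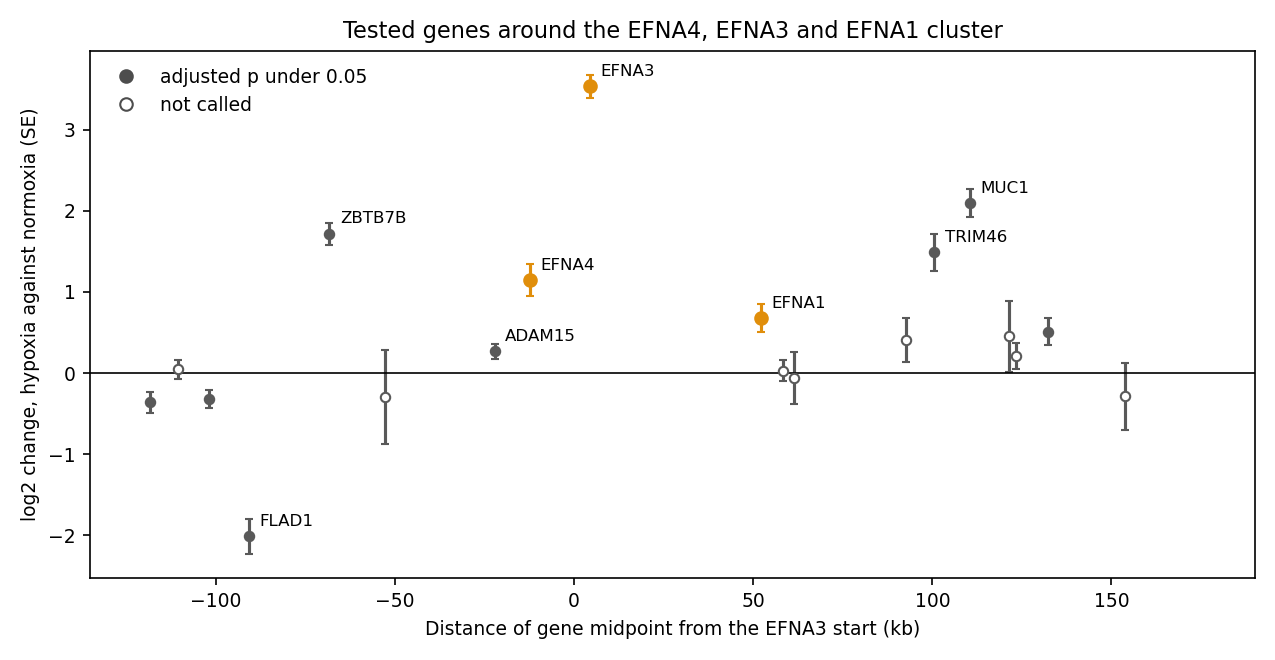
Log2 change of tested genes near the EFNA4, EFNA3 and EFNA1 cluster against the distance of its midpoint from the EFNA3 start, in kb. Orange points are the 3 ephrin genes, filled points passed an adjusted p of 0.05 and bars are SE. EFNA3 at 3.54 lies above EFNA4 at 1.14 and EFNA1 at 0.68, and neighbours lie on both sides of 0.

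EFNA3 mRNA is also a textbook target of miR-210, a microRNA known to be made under low oxygen. The mature microRNA (RefSeq, GRCh38.p14) and the matching stretch of the coding EFNA3 transcript in GENCODE are shown to place the site. Capitals mark the seed, bases 2 to 8, and its complement.
hsa-miR-210-3p: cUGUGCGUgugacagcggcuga
EFNA3 mRNA, chr1:155087327-155087348: acaggacctatgcaACGCACAg

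The complement ACGCACA begins at base 1585 of the 1782-base transcript, in the 3′ untranslated region, and occurs 1 time. Of 6656 coding transcripts between 1603 and 1960 bases long, 4.01% hold this 7-base match. Mature microRNA was not measured. MIR210HG (ENSG00000247095), the long non-coding gene whose span on chromosome 11 covers the microRNA, was at 1.82, 1.23 and 1.58 CPM in normoxia and 19.8, 19.6 and 17.2 CPM in hypoxia. It rose by 3.59 ± 0.20 on the log2 scale (SE; edgeR adjusted p = 1.77e-07) while EFNA3 RNA was also higher.

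EFNA5, the ephrin-A5 gene (ENSG00000184349, chromosome 5, 107376889 to 107670895, minus strand), went the other way from its A-class relatives. It was at 19.8, 22.8 and 20.7 CPM in normoxia and 13.8, 14.98 and 16.7 CPM in hypoxia. All hypoxia libraries lay below all normoxia libraries. The fall was 1.39-fold (log2 change -0.47 ± 0.14, SE; edgeR adjusted p = 0.0113), and it would not pass a threshold of 0.01.

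EFNB1 encodes ephrin-B1 (ENSG00000090776, chromosome X, 68828997 to 68842147, plus strand), a ligand with its own signalling tail. It was at 8.39, 7.54 and 7.24 CPM in normoxia and 21.2, 22.3 and 27.5 CPM in hypoxia. Hypoxia replicate 3 was the highest, and the groups were well apart (log2 change 1.62 ± 0.16, SE; edgeR adjusted p = 7.62e-06).

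EFNB2 encodes ephrin-B2 (ENSG00000125266, chromosome 13, 106489731 to 106535662, minus strand), the arterial marker and main partner of EphB4. Its levels were 10.6, 9.56 and 9.34 CPM in normoxia and 6.43, 5.71 and 11.3 CPM in hypoxia. Hypoxia replicates 1 and 2 were below all normoxia libraries, and replicate 3 was above them. The log2 change of -0.31 ± 0.25 (SE) was not called (edgeR adjusted p = 0.299). Without hypoxia replicate 3 it was -0.73 (adjusted p = 0.00327), and with library totals alone -0.62 (adjusted p = 0.0458). The endothelial marker PECAM1 was also highest in hypoxia replicate 3, at 3.43 CPM against 0.316 and 1.33 in the other hypoxia libraries, and so was ESAM, at 1.32 CPM against 0.105 and 0.612. In that library CDH5 had no count and VWF was at 0.0602 CPM, its lowest level. The summed 8 endothelial markers ran from 151 to 176 CPM in normoxia and from 171 to 185 CPM in hypoxia. Replicate 3 had the lowest sum in hypoxia. The part of these markers in the EFNB2 values was not tested. An antisense gene, ENSG00000284966, covers 1313 of the 5019 exonic bases of EFNB2 and had 114 counts over all libraries. Without a stated strand setting, reads of the 2 strands cannot be told apart here.

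Among receptors, EPHA2 (ENSG00000142627, chromosome 1, 16124337 to 16156087, minus strand) encodes EphA2, often raised in invasive tumours. Its levels were 98.2, 90.3 and 92.7 CPM in normoxia and 126, 114 and 133 CPM in hypoxia. Every hypoxia library was higher, by 1.33-fold on average (log2 change 0.41 ± 0.095, SE; edgeR adjusted p = 0.00319). This modest rise was lost with library totals alone, at 0.099 (adjusted p = 0.429), and when all genes with a count were kept, at 0.29 (adjusted p = 0.0706).

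EPHA4 (ENSG00000116106, chromosome 2, 221418027 to 221574202, minus strand) encodes EphA4, a receptor that binds ephrins of both classes. It had 40, 37 and 40 counts in the normoxia libraries and 3, 1 and 7 in the hypoxia libraries, or 1.78, 2.27 and 2.34 CPM against 0.316, 0.102 and 0.421 CPM. The groups did not overlap, but 2 of the 3 hypoxia libraries held 3 counts or fewer. Pooled by group, 117 counts against 11 gave a level 6.82-fold lower, with an exact 95% interval from 3.68 to 14.04 that covers counting error only. The fitted log2 change was -2.79 ± 0.46 (SE; edgeR adjusted p = 0.000375). An antisense gene, ENSG00000272944, covers 353 of its 7554 exonic bases and had 5 counts, all in hypoxia.

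EPHB2 and EPHB4, receptors for B-class ephrins, rose to a similar degree. EPHB2 (ENSG00000133216, chromosome 1, 22710839 to 22921500, plus strand) was at 26.7, 23.5 and 27.0 CPM in normoxia and 47.7, 48.8 and 46.2 CPM in hypoxia (log2 change 0.89 ± 0.11, SE; edgeR adjusted p = 4.28e-05). EPHB4 (ENSG00000196411, chromosome 7, 100802565 to 100827521, minus strand), the venous partner of ephrin-B2, was at 38.4, 37.3 and 39.1 CPM in normoxia and 65.2, 65.4 and 84.0 CPM in hypoxia. Its hypoxia replicate 3 was the highest, and the log2 change was 0.91 ± 0.12 (SE; edgeR adjusted p = 7.63e-05). SLC12A9, which runs the other way and shares 69 exonic bases with EPHB4, was 1.85-fold lower (edgeR adjusted p = 0.000436).

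**Figure D3:**
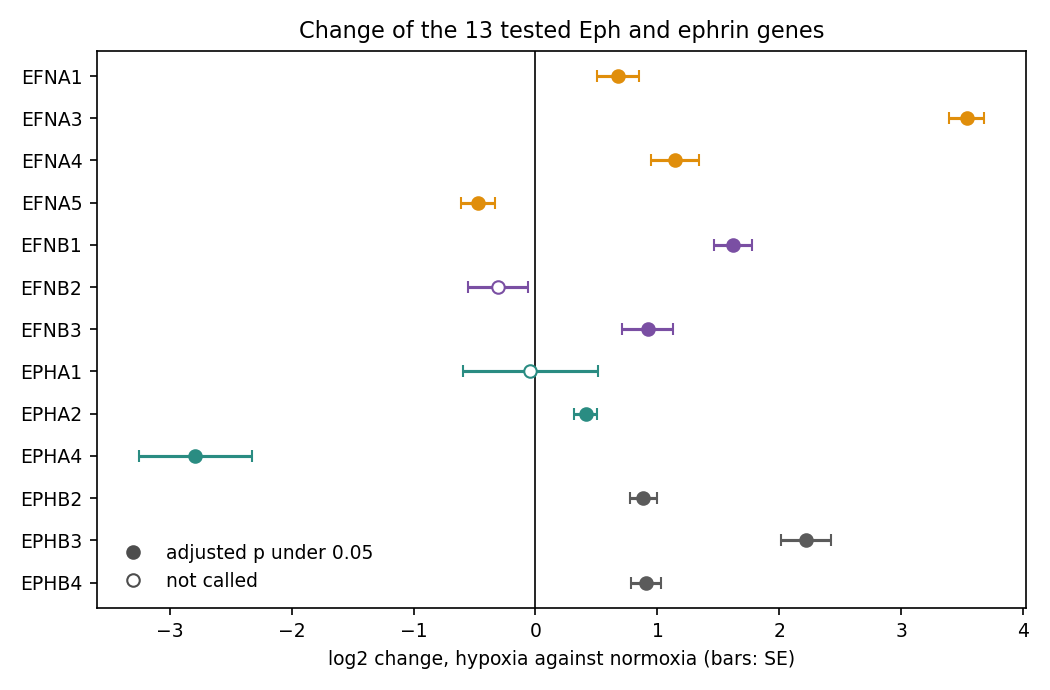
Log2 change, hypoxia against normoxia, of the 13 tested Eph and ephrin genes, with bars of SE. A ligands are orange, B ligands purple, A receptors green and B receptors grey, and open points were not called. EFNA3 at 3.54 and EPHA4 at -2.79 are the extremes.

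The human family has 22 genes here, and 12 of them are not among the 10 above. Of those 12, 3 were measured well enough to test, 2 rose and 0 fell (66.7% called, beside 62.2% of all tested genes). EPHB3, another EphB receptor gene, was at 2.13, 2.57 and 2.63 CPM in normoxia and 12.5, 11.6 and 9.93 CPM in hypoxia, a rise of 2.22 ± 0.21 on the log2 scale (SE; edgeR adjusted p = 5.77e-06). EFNB3, the third B-class ligand, went from between 3.64 and 4.41 CPM to between 6.43 and 8.61 CPM (log2 change 0.92 ± 0.21, SE; edgeR adjusted p = 0.00286). EPHA1 had 14, 6 and 11 counts in normoxia and 2, 9 and 8 in hypoxia and was not called (edgeR adjusted p = 0.95). The other 9 genes had between 2 and 46 counts over all libraries and were not tested. Among them EPHA3 had 16, 4 and 4 counts in normoxia and 0 in each hypoxia library, where 3 counts are 0.181 to 0.316 CPM.

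Levels of different genes were compared per kilobase (kb) of exon. In normoxia EPHA2 led at 22.5 ± 0.972 CPM per kb (SD, n = 3), followed by EPHB4 at 5.94 ± 0.142 and EFNA5 at 3.70 ± 0.268. EFNA5 and EFNA1, EFNA1 and EFNA4, EFNA3 and EFNB1, and EPHB2 and EFNB2 are neighbours in this order whose ranges overlapped. EPHA4 was last among the 10, at 0.281 ± 0.0405 CPM per kb. In hypoxia EPHA2 at 29.96 ± 2.31 and EFNA3 at 28.4 ± 3.14 CPM per kb had overlapping ranges, and EPHB4 followed at 11.1 ± 1.68. EFNB1 and EFNA4 overlapped next, at 7.14 ± 1.02 and 7.01 ± 0.801. EFNA1, EPHB2, EFNA5, EFNB2 and EPHA4 came after them in that order with no overlap between neighbours. The order depends on the length used. With all EFNA3 counts divided by only the exon length that no other gene covers, it was at 4.45 CPM per kb in normoxia. In hypoxia it was then at 51.4, above EPHA2. Other places moved as well. With that length EFNA4, at 8.25 CPM per kb, was above EFNB1, at 7.14, in hypoxia. EFNB2, at 2.66, was above EFNB1, at 2.33, in normoxia. Overlap of ranges was read only with the full exon length.

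The makeup of the A-class ligand RNA changed with EFNA3. Per kb, EFNA3 was 19.4% ± 1.24 of the summed A-ligand level in normoxia and 65.6% ± 0.314 in hypoxia (SD, n = 3). EFNA5 was 29.2% ± 1.504 and 6.16% ± 0.634. With the same counts divided by unshared exon length, EFNA3 was 29.2% in normoxia and 76.1% in hypoxia, and EFNA5 24.3% and 3.95%. The ratio of EFNA3 to EPHA2 per kb was 0.0965, 0.112 and 0.119 in normoxia and 0.946, 0.916 and 0.981 in hypoxia. EFNA1 to EPHA2 was at 0.146 ± 0.0176 and 0.174 ± 0.0117.

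Within the B class EFNB1 and EFNB2 moved apart. EFNB2 was 35.5% ± 1.19 of the summed B-ligand level per kb in normoxia and 13.8% ± 2.96 in hypoxia (SD, n = 3). EFNB3 was 22.3% ± 2.61 and 21.1% ± 1.19, so in hypoxia it was above EFNB2. EFNB1 to EFNB2 per kb was 1.19, 1.19 and 1.17 in normoxia and 4.99, 5.92 and 3.68 in hypoxia. EFNB2 to EPHB4 was 0.355, 0.329 and 0.307 in normoxia and 0.127, 0.112 and 0.173 in hypoxia. These ratios are descriptions with no test. With the same counts divided by unshared exon length, EFNB2 was a larger share than EFNB1 in normoxia, 42.7% against 37.4%. In hypoxia it was smaller, 17.8% against 62.1%. EFNB3 was then 19.9% and 20.1%. Reads in bases shared with the antisense gene may still be in the EFNB2 count, so the normoxia order is uncertain. Summed per kb, A ligands were at 12.7 ± 0.326 and 43.4 ± 4.85 CPM in normoxia and hypoxia, and B ligands at 5.52 ± 0.271 and 11.0 ± 1.93. A receptors were at 23.0 ± 1.03 and 30.2 ± 2.30 CPM per kb, of which EPHA2 was 97.9% and 99.3%, and B receptors at 8.63 ± 0.263 and 17.5 ± 1.375.

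**Figure D4:**
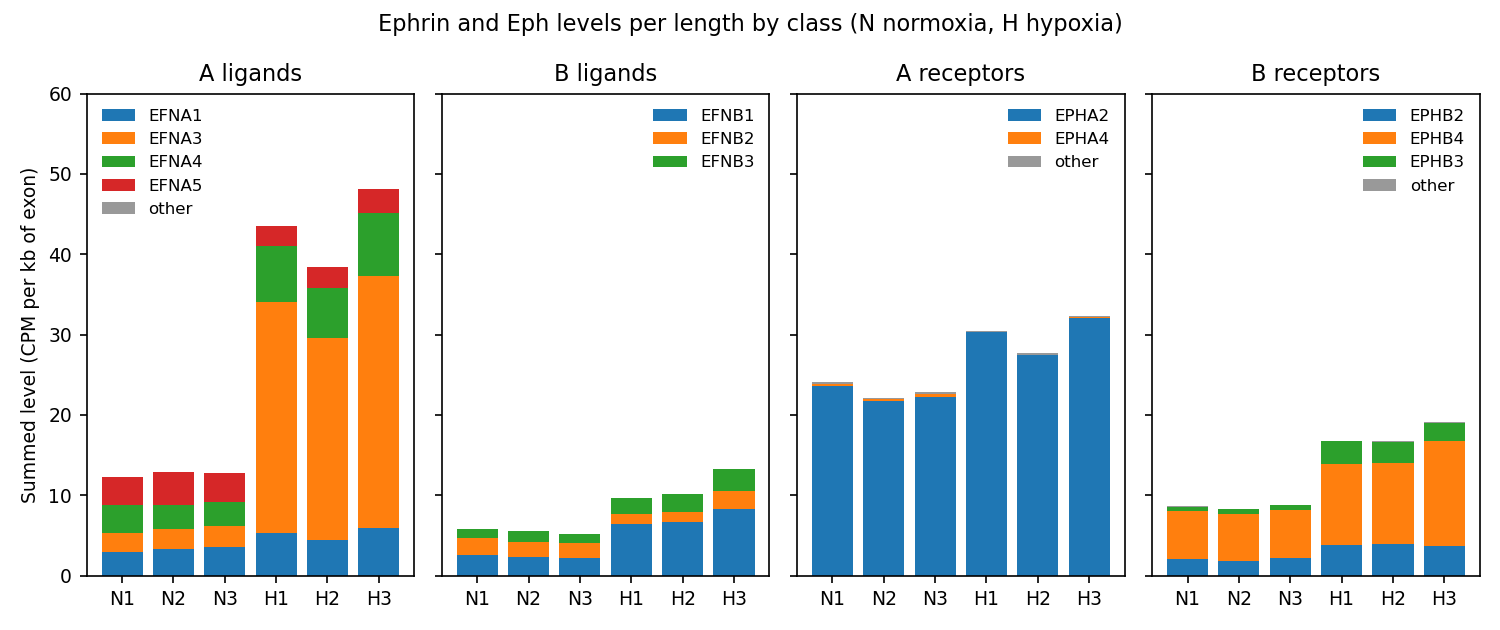
Summed level per kb of exon for A ligands, B ligands, A receptors and B receptors in each library (N1 to N3 normoxia, H1 to H3 hypoxia), stacked by gene. The A-ligand sum goes from 12.7 to 43.4 CPM per kb on average, mostly through EFNA3, and EPHA2 makes up nearly all of the A-receptor sum.

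Other genes of the pathway were read from 3 lists. Of 20 genes for cleavage and endocytosis of Eph and ephrin proteins, 19 were tested, 9 rose and 2 fell. That is 57.9% called, beside 62.2% of all genes. RIN1, which promotes uptake of EphA4 through Rab5, rose 3.10-fold to 147 ± 23.5 CPM, and the ubiquitin ligase genes CBLB and CBL rose 2.44-fold and 2.16-fold. ADAM10, the protease that cuts ephrins from the membrane, fell from 192 ± 9.91 to 152 ± 3.19 CPM (SD, n = 3; edgeR adjusted p = 0.00593). PSEN2, a gamma-secretase subunit gene, was the other fall, at 1.46 ± 0.438 and 0.653 ± 0.206 CPM (SD, n = 3; edgeR adjusted p = 0.0383). The PSEN2 call was lost without any 1 library except normoxia replicate 3, with adjusted p up to 0.163. The list's count of 11 became 6, 6 and 7 without normoxia replicate 1, 2 and 3.

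Of 33 adaptors and kinases of Eph and ephrin signalling, 29 were tested, 16 rose and 3 fell (65.5% called, beside 62.2%). The scaffold gene BCAR1 rose 4.98-fold, from 33.4 ± 1.80 to 167 ± 32.8 CPM, the kinase gene ABL1 4.10-fold and the adaptor gene CRKL 4.06-fold. PTPN11, which encodes the phosphatase SHP2, fell from 327 ± 7.04 to 177 ± 11.6 CPM. PIK3R1 and the Ras inhibitor gene RASA1 were 1.51-fold and 1.31-fold lower. The list's median log2 change was 0.42.

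Of 30 regulators and effectors of small GTPases, 27 were tested, 10 rose and 10 fell (74.1% called, beside 62.2%). RAP1GAP rose 3.38-fold from 1.22 ± 0.574 CPM, and the GTPase genes CDC42 and RHOG rose 2.46-fold and 2.43-fold. CDC42 ran from 6.54 to 12.7 CPM in normoxia. Only 1461 of its 3598 exonic bases are covered by no other gene, so its level is uncertain. The exchange factor genes ARHGEF26, FARP2 and KALRN were 2.49-fold, 2.39-fold and 1.89-fold lower. The median log2 change was 0.054.

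EFNA3 had the largest change of the 10 genes, and genes with the most similar pattern were ranked by Euclidean distance of log2 CPM from their normoxia mean over the 6 libraries. Nearest were CATSPERG at a distance of 0.139, PLIN2 at 0.281, P4HA1 at 0.301, HLA-K at 0.325 and SMAD7 at 0.365. PLIN2 coats lipid droplets, P4HA1 hydroxylates collagen and SMAD7 restrains TGF-beta signalling. HLA-K is a pseudogene whose reads may match other HLA genes, so its value is uncertain. It had only 3, 3 and 4 counts in the normoxia libraries. Its fitted log2 change was 4.34, against 3.54 for EFNA3, and its small distance rests on log2 CPM with a prior count of 2.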

How the data were processed

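The authors deposited raw read counts per Ensembl gene for 6 libraries. Per the submitters' processing notes, fastp 0.20.1, HISAT2 2.1.0, featureCounts 2.0.1 and the build GRCh38.p13 were used. Neither the annotation release nor the strand setting was stated. Of 61860 lines, 1 names no gene and holds 0.00243% of counts; it was left out. A second deposited table was not used because its cells run together. Groups and replicate numbers came from sample titles.

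The tests used edgeR 4.0.16 (R 4.3.3) with filterByExpr (minimum count 10, minimum total 15), which kept 16411 genes, TMM factors and the robust quasi-likelihood test, p-values adjusted by Benjamini-Hochberg across the whole tested table at 0.05. The SE is the log2 change divided by the square root of F. Log2 CPM used a prior count of 2. Gene spans and exon lengths are from GENCODE 29 on GRCh38, symbols from a gene name table, and promoters and the microRNA from RefSeq (GRCh38.p14). Within groups, every pair of libraries differed beyond counting noise, at a chi-square per gene of 5.75 to 39.3. The scripts were tested on simulated data.

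The genes and lists were chosen with earlier results of these data known. Named genes were the 10 genes, tested relatives, up to 3 rises and 3 falls per list with mean CPM of at least 1, tested genes within 100 kb of the EFNA cluster, CA9, VEGFA and NDRG1, and the 5 genes most like EFNA3. MIR210HG, EPHA3, the endothelial markers given singly and the genes that overlap the 10 were added after values were seen. Of the called neighbours of the EFNA cluster, some are not reported here by name. Alternatives were other scalings and filters, DESeq2 1.42.0, limma-voom (limma 3.58.1), a replicate block, an adjusted p of 0.01, TMM factors without the 10 most abundant genes, and leaving out each library.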

Additional observations from a re-analysis of the deposited data

How the results depend on the processing

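Over 16 alternative settings for each of the 10 genes, 154 gene-by-setting results kept their direction and side of the threshold, 4 lost the call, 2 gained it and 0 changed sign. With library totals alone EFNA1 was at 0.37 and EPHA2 at 0.099, both no longer called, and EFNB2 was called at -0.62. EPHA2 was not called with no filter on low counts, at 0.29, and EFNA5, at -0.47, would not pass 0.01. Leaving out 1 library at a time put EFNB2 between -0.73 and -0.13. The count for the cleavage and endocytosis list, 11, became 7 with upper-quartile factors, 7 with no filter, 6 at an adjusted p of 0.01 and 6 to 10 without 1 library. Log2 ratios of summed levels per kb, 1.78, 0.996, 0.39 and 1.02 for A ligands, B ligands, A receptors and B receptors, became 1.47, 0.69, 0.078 and 0.71 with library totals. For A ligands the ratio was 1.23 per kb of coding sequence and 2.15 per kb of exon that no other gene covers, a length chosen after seeing the data. Genes not called, and ADAM15, changed sign in places. SHC1 was at -0.016, -0.26 and -0.084 and SLC50A1 at -0.039, -0.28 and -0.090 with upper-quartile factors, library totals and no filter. ADAM15 was at -0.038 and THBS3 at -0.097 with library totals. Without 1 library, ranges were -0.56 to 0.27 for EPHA1, -0.059 to 0.14 for SHC1, -1.01 to 0.086 for DCST2, -0.063 to 0.082 for SLC50A1, -0.50 to 0.22 for DPM3, -0.057 to 0.81 for THBS3-AS1 and -0.49 to 0.057 for MTX1P1. The scalings shift all genes in common, with a median shift in log2 change of -0.067 for upper-quartile factors. With no filter the median shift was -0.12. Apart from these shifts, the cause was not tested. EPHA4 in hypoxia, at 11 counts, is limited by depth.

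Replicate numbers are shared between groups, but nothing in the labels pairs them. Deviations from group means of same-numbered libraries correlated at -0.11, 0.086 and -0.038, and normoxia replicate 3 correlated best with hypoxia replicate 1, at 0.18. With the replicate number as a block, 9768 genes were called in place of 10208, the same number of the 10 genes (9), and 6 in place of 11 of the cleavage and endocytosis list.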

Other observations

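Endothelial receptor genes that act beside ephrin-B2 and EphB4 in vessels were also measured in these cells. TIE1 was at 145, 133 and 156 CPM in normoxia and 180, 166 and 162 CPM in hypoxia and was not called (edgeR adjusted p = 0.062), although the groups did not overlap. TEK, the angiopoietin receptor gene, was at 12.5, 13.4 and 15.004 CPM in normoxia and 3.16, 3.98 and 2.77 CPM in hypoxia, and fell by 2.06 ± 0.20 on the log2 scale (SE; edgeR adjusted p = 7.82e-06). KDR, a VEGF receptor gene, was at 2.13, 2.45 and 2.34 CPM and at 0.844, 0.612 and 1.45 CPM (edgeR adjusted p = 0.0170). PECAM1, an adhesion molecule gene of endothelium, was at 0.621, 1.16 and 1.05 CPM in normoxia and at 0.316, 1.33 and 3.43 CPM in hypoxia and was not called (edgeR adjusted p = 0.217). PECAM1 was highest in hypoxia replicate 3, where EFNB2 was also highest. Among the hypoxia libraries KDR was highest there too, while TIE1 and TEK were lowest there. The remaining markers CDH5, VWF, CLDN5 and ESAM each had a mean under 1 CPM. Most of the summed level of the 8 endothelial markers was TIE1.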
